A study of Homo sapiens with 10 samples.

Results

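The small subunit of the cytosolic ribosome is built from 1 ribosomal RNA and a set of proteins, most of which are named RPS and a number. This account follows 28 genes for such proteins through 10 RNA-seq libraries of HEK293, a human embryonic kidney cell line. They are RPSA, FAU and 26 RPS genes, taken by symbol. No measured value entered that rule, but the list was chosen with earlier results of these data known. Each had 1 transcript among the 25005 in the deposited tables, and all 28 passed the filter on low counts that left 13731 tested genes.

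The study measured polyadenylated RNA after the treatments used to crosslink RNA-binding proteins to RNA. One group of 2 libraries came from cells given 1 mM 4-thiouridine (4SU), a uridine analogue taken up into new RNA, for 12 to 14 h and then irradiated at 365 nm. The second group of 2 had 4SU and no irradiation, the third group of 2 had 254 nm irradiation and no 4SU, and 2 untreated libraries had neither. The 2 libraries of each group are told apart by a letter, A or B. Single libraries came from cells transfected with siRNA against HuR and from cells transfected with siRNA against GFP, with no 4SU and no irradiation. The labels do not say that A and B were separate cultures, so each p-value reflects no more than the scatter of these libraries, which may be technical. All libraries are from 1 cell line.

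Ribosomal protein genes are among the most highly transcribed genes of growing cells. Their mRNAs are short and stable, and most of them start with a run of pyrimidines, the 5′ terminal oligopyrimidine (TOP) motif, through which growth signals control translation of the whole set. Most members are needed for assembly of the small subunit, and several sit beside the path of the mRNA or the decoding site.

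The start of these mRNAs is shown first because that motif is a feature most of the members share. The sequences are from RefSeq, build GRCh38.p14, 15 bases before and 15 bases from the annotated start on. Capitals mark a C at the start base followed without a gap by at least 4 bases that are each C or T, read on the transcribed strand only. The first 4 lines have the motif: RPS16 had the highest level, RPSA and RPS24 the widest gap between the irradiation effects, and RPS3A the lowest level. The other 4 lack it: RPS28 and RPS15 had high fold changes, RPS29 was called in 4SU, and RPS26 had few tags.
RPS16 (chr19:39435935-39435964, minus strand): gtggcccctagctttCCTTTTCCggttgcg
RPSA (chr3:39406705-39406734, plus strand): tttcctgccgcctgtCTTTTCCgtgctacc
RPS24 (chr10:78033848-78033877, plus strand): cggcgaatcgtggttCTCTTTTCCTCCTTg
RPS3A (chr4:151099613-151099642, plus strand): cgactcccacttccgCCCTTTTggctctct
RPS28 (chr19:8321481-8321510, plus strand): tccccgaagcacgtgactcctctccgccag
RPS15 (chr19:1438381-1438410, plus strand): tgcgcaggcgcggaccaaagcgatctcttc
RPS29 (chr14:49598696-49598725, minus strand): ccccgagcgcgcagctggcagcggtggttg
RPS26 (chr12:56041903-56041932, plus strand): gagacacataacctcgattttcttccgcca

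Of the 25 members with an entry in the start table, 19 (76.0%) had a start with the motif. The share was 73.7% of 38 large-subunit genes and 5.14% of all 27305 genes in the table. RPS4X, RPS7, RPS15, RPS26, RPS28 and RPS29 had an entry and no such start. The annotated start is a single base, and a start a few bases away would change the match.

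The 8 libraries of the 4 groups held 2238569 to 3099769 tags, and the HuR siRNA and GFP siRNA libraries held 9016803 and 8688262 tags. In the 8 libraries, 3 tags corresponded to 0.968 to 1.34 CPM, which are counts per 1000000 tags. Of the markers checked for HEK293, KRT18 had 45 to 347 tags in every library, while VIM had 0 to 48, KRT8 0 to 8, NEFM 1 to 85 and PAX2 0 to 40. ALB and HBB had 0 tags in all 10 libraries, and PTPRC and PECAM1 had at most 1 and 4. The plot of tag shares shows each library. Library A had the higher small-subunit level in both 4SU groups and library B in the 254 nm group.

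The members took up a larger share of the tags after either irradiation. They held 11.9% and 8.30% of all tags in 4SU with 365 nm, against 3.76% and 2.15% in 4SU. They held 6.50% and 8.77% in 254 nm, against 2.38% and 1.83% in untreated cells. Both libraries of each irradiated group lay above both of the libraries it was set against, and the ratios of the mean shares were 3.41 and 3.63. An exact permutation test of 2 against 2 cannot give a p below 0.333, so no test was made on the shares. These are shares of bulk RNA, in which fewer cells of a type and less RNA per cell cannot be told apart, nor can more RNA of these genes and less RNA of others.

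The genes for the large subunit moved beside them. The 44 large-subunit genes in the files held 17.3% and 12.4% of tags in 4SU with 365 nm, against 5.43% and 3.24% in 4SU. They held 10.2% and 13.4% in 254 nm, against 3.62% and 2.74% in untreated cells. The ratio of small-subunit to large-subunit tags stayed between 0.637 and 0.693 in all 10 libraries.

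**Figure D1:**
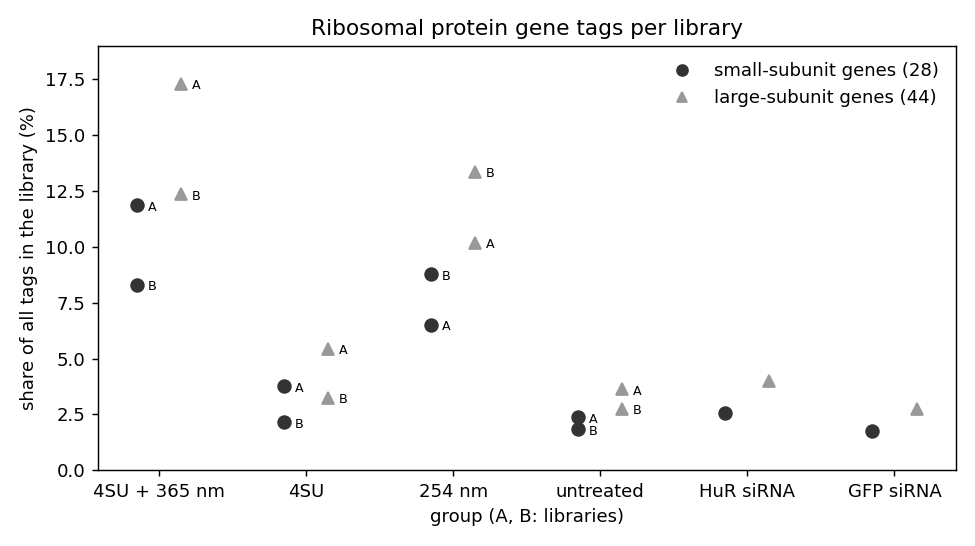
Share of all tags in each library (%) that fell on the 28 small-subunit genes (circles) and on 44 large-subunit genes (triangles), by group, with 1 point per library and the letters A and B. The small-subunit share was 6.50% to 11.9% in the 4 irradiated libraries and 1.75% to 3.76% in the other 6.

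Levels differed widely between members. On the authors' expression value, which is tags per length of transcript and so can be set between genes, RPS16 was highest and RPS3A lowest in each of the 6 groups. In untreated cells RPS16, whose tail reaches towards the tRNA in the peptidyl site, had 547 and 236. RPS4X, which is encoded on the X chromosome, had 257 and 275. RPS18, a head protein, had 253 and 202. RPS6 had 209 and 209, and RPS19 had 252 and 158. The libraries of RPS16 spanned the values of RPS4X, and those of RPS18, RPS6 and RPS19 overlapped one another, so these neighbours in the order are not separated. RPS4X lay above RPS18 by a narrow margin, 257 against 253 at the nearest. The 5 highest members held 45.3% to 55.9% of the summed value in a group.

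At the low end, RPS29 had 14.0 and 4.26 in untreated cells on the same per-length scale. RPS26 had 2.95 and 3.16, and RPS3A had 1.32 and 1.44, and these 3 genes did not overlap each other. The low value of RPS3A rested on 25 to 60 tags in the 8 libraries and that of RPS26 on 53 to 236, where each other member had 75 tags or more. RPS23 and RPS24 were listed with transcripts of 3325 and 2820 nt, far longer than the 361 to 1155 nt of the other members. They ranked 24 and 23 of 28 per length in untreated cells, although RPS23 had 2829 and 3071 tags there and RPS24 had 2529.8 and 2599. A value per length depends on the listed transcript, and tags from a shorter form would be divided by too long a length.

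Some tags of these genes match more than 1 transcript, and how many do is not known. A fractional count, the sign of a tag split between transcripts, appeared in at least 1 library for 23 of the 28 members. For RPS9, RPS19, RPS26, RPS27 and FAU it appeared in only 1 library. Values of these members are uncertain to the extent that tags of processed pseudogenes or close copies were shared with them. RPS3, RPS13, RPS15, RPS25 and RPS28 had whole counts throughout.

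The tests below use CPM scaled by TMM factors (normalised CPM) and edgeR's quasi-likelihood test, with Benjamini-Hochberg adjustment over all 13731 genes. A gene is said to be called at an adjusted p below 0.05. Fold changes are log2 values of the first group over the second, with their standard errors (SE).

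In 4SU with 365 nm against 4SU, all 28 members rose, beside 26.1% of all tested genes called higher. Their log2 fold changes ran between 2.52 for RPS3A and 4.38 for RPS28, with a median of 3.73, against a median of -0.50 over all tested genes. The adjusted p-values of edgeR's quasi-likelihood test lay between 1.52e-09 and 1.49e-05. Both irradiated libraries lay above both 4SU libraries for 28 of 28 members, and for 33.1% of all tested genes.

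In 254 nm against untreated cells, all 28 members rose as well, beside 25.2% of all tested genes called higher. The log2 fold changes ran between 1.26 for RPS3A and 3.88 for RPS28, with a median of 2.84, against -0.14 over all tested genes. The adjusted p-values of edgeR's quasi-likelihood test lay between 1.63e-07 and 0.0189, the last for RPS3A. Both irradiated libraries lay above both untreated libraries for 28 members and for 35.7% of all tested genes. The call for RPS3A was lost when library B of the 254 nm group was left out (log2 fold change 0.76, adjusted p = 0.288 by edgeR).

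**Figure D2:**
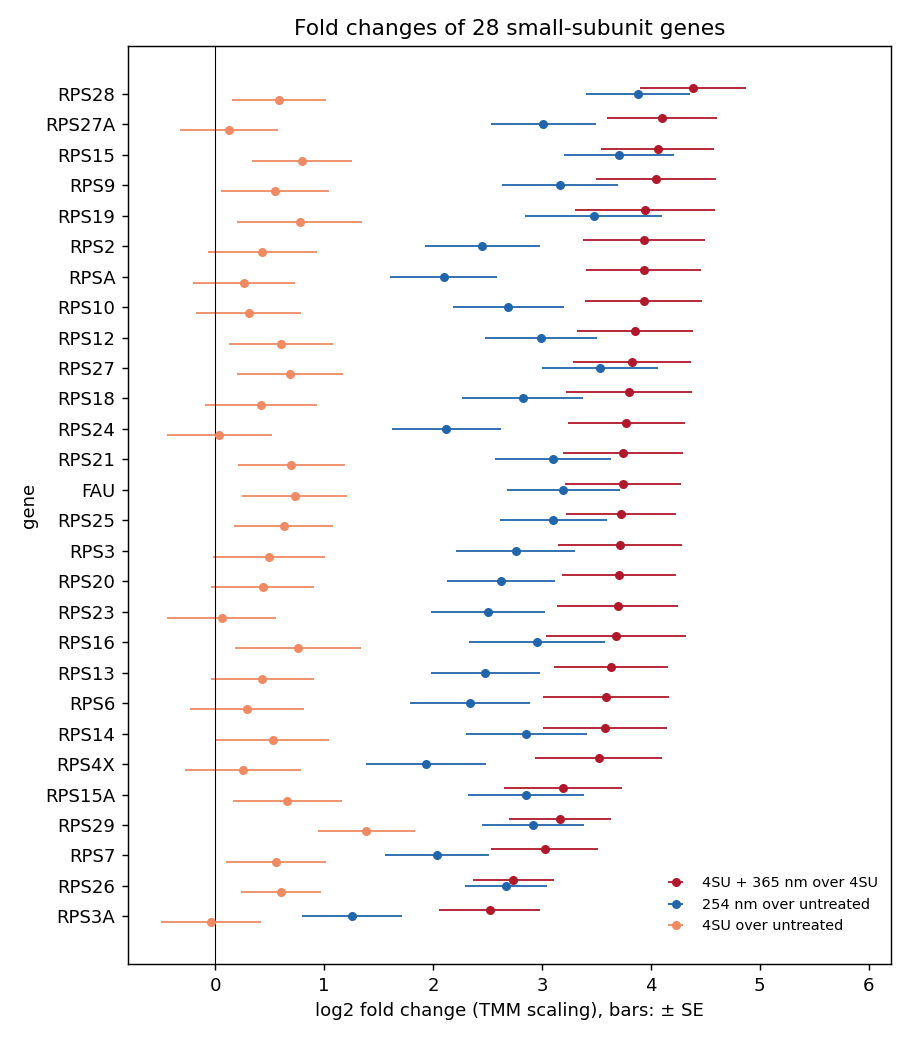
Fitted log2 fold change of each of the 28 small-subunit genes with its SE, for 4SU with 365 nm over 4SU, 254 nm over untreated and 4SU over untreated, sorted by the first. The 365 nm values lie between 2.52 and 4.38 and the 254 nm values between 1.26 and 3.88, while the 4SU values lie between -0.04 and 1.39.

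The size of these fold changes depends on the scaling. When libraries were scaled by their totals instead, the median of all tested genes was -2.40 at 365 nm and -0.998 at 254 nm, and the members' medians were 1.78 and 1.92. A change of scaling moves every gene of a library alike, so the members are best read against the median of all genes, above which they lay by 4.24 at 365 nm and 2.98 at 254 nm with TMM. With library totals 26 members were called at 365 nm, beside 7.42% of all tested genes called higher and 72.6% called lower. RPS3A and RPS26 had log2 fold changes of 0.55 and 0.83 there without a call. At 254 nm 27 members were called, beside 10.1% called higher and 47.1% called lower, and RPS3A had 0.36 without a call.

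Transcript length went with the fold change over all genes. The tested genes that are no members were split into 10 classes by length. The class of the shortest transcripts (216 to 1050 nt) had a median log2 fold change of 1.85 at 365 nm and 1.75 at 254 nm. The class of the longest had -1.52 and -1.67. All members but RPS23, RPS24 and RPSA fall in the range of the shortest class, and all 28 lay above its median at 365 nm, as did all but RPS3A at 254 nm. The part of length in the members' change was tested only by a correction of each library for its trend on length. That correction also took the place of the TMM factors. After it 27 members were called at 365 nm, beside 23.5% of all genes called higher, and 22 at 254 nm, beside 17.3%. The members' medians were 1.86 and 1.15, against -0.43 and -0.07 over all tested genes. The members thus lay above the median of all genes by 2.29 at 365 nm and 1.21 at 254 nm. RPS3A lost its call at 365 nm (adjusted p = 0.0556 by edgeR), and kept it with the replicate block and the length correction (0.93, adjusted p = 0.0352). RPSA, RPS3A, RPS4X, RPS6, RPS7 and RPS13 lost theirs at 254 nm.

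RPS23 and RPS24 had the highest values of all members after that correction, which takes their listed lengths as given. If their tags came from shorter forms, the correction would be wrong for these 2 genes. RPS23 had a log2 fold change of 4.07 at 365 nm and 2.93 at 254 nm with the correction, against 3.69 and 2.50 without it. RPS24 had 3.99 and 2.21 with the correction, against 3.77 and 2.12 without it. Over the 28 members themselves, Pearson's r of fold change with log10 length was -0.11 at 365 nm and -0.55 at 254 nm. These members share their libraries, and no p is attached.

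**Figure D3:**
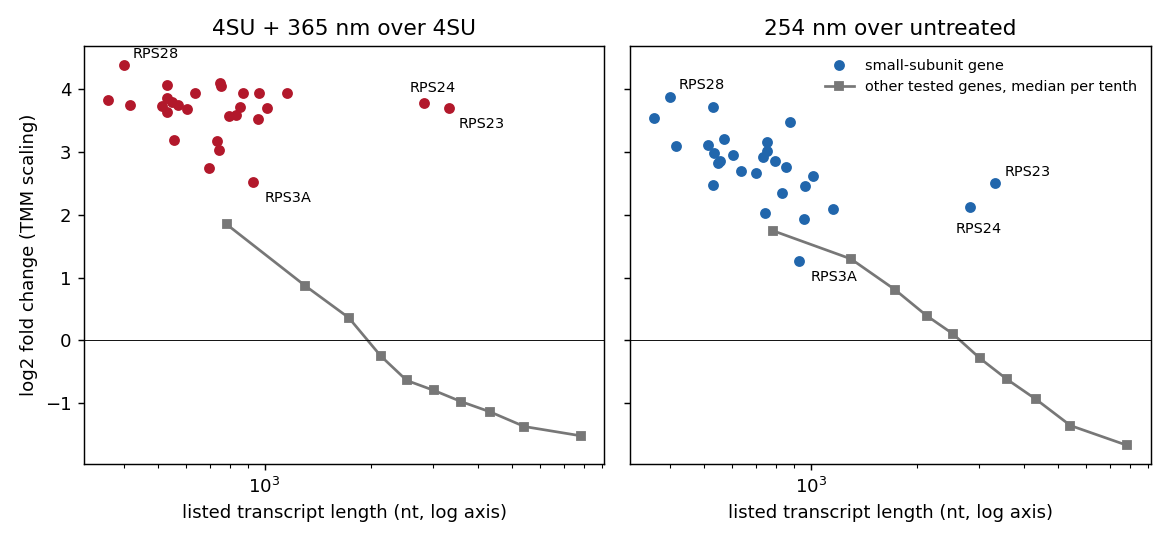
Log2 fold change against listed transcript length (nt, log axis) for the 28 small-subunit genes (circles) and the median of all other tested genes in 10 classes of length (squares), for 4SU with 365 nm over 4SU on the left and 254 nm over untreated on the right. The other genes fall with length, to -1.52 and -1.67 in the class of the longest, while RPS23 and RPS24, listed at 3325 and 2820 nt, stay at 3.69 and 3.77 on the left.

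Of the proteins beside the path of the mRNA, RPS28 had the highest fold changes and RPS26 one of the lowest at 365 nm. RPS28, which lies near the mRNA exit, had 1508 and 1396 normalised CPM in 4SU with 365 nm, against 98.1 and 41.5 in 4SU. It had 545 and 817 in 254 nm, against 66.9 and 25.0 in untreated cells. The groups did not overlap in either pair, and its log2 fold changes of 4.38 (SE 0.48) and 3.88 (SE 0.47) were the highest of the 28 in both comparisons. RPS26, its neighbour at the mRNA exit, had 138 and 134 in 4SU with 365 nm, against 25.9 and 15.3 in 4SU. It had 55.9 and 115 in 254 nm, against 12.7 and 14.1 in untreated cells. Its log2 fold changes were 2.74 (SE 0.37) and 2.67 (SE 0.37), so it had the second-lowest value at 365 nm but not at 254 nm.

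RPS2, at the mRNA entry, had 13232 and 5986 in 4SU with 365 nm, against 819 and 438 in 4SU. It had 1877 and 3228 in 254 nm, against 586 and 346 in untreated cells. The groups of each pair did not overlap, with log2 fold changes of 3.94 (SE 0.56) and 2.45 (SE 0.53). RPS23, which shapes the decoding site, had 12105 and 6492 in 4SU with 365 nm, against 850 and 587 in 4SU. It had 2427 and 5395 in 254 nm, against 563 and 817 in untreated cells. Its 254 nm libraries differed from each other by more than its untreated ones. RPS3, also at the mRNA entry and free of split tags, had log2 fold changes of 3.72 (SE 0.57) and 2.76 (SE 0.55).

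A list of 9 proteins of the head of the subunit (RPS10, RPS12, RPS15, RPS16, RPS18, RPS19, RPS20, RPS25 and RPS29), which leaves out the head proteins RPS3 and RPS28 described above, was called in full in both comparisons. Every other member was called as well, beside 26.1% of all tested genes called higher at 365 nm and 25.2% at 254 nm. Medians of the 9 were 3.80 at 365 nm and 2.96 at 254 nm, against 3.73 and 2.84 over all 28 members. RPS15, which reaches towards the decoding site and had no split tags, had 5001 and 3854 in 4SU with 365 nm, against 353 and 177 in 4SU. It had 1414 and 2575 in 254 nm, against 195 and 110 in untreated cells. Its log2 fold changes of 4.06 (SE 0.52) and 3.71 (SE 0.51) came after those of RPS28 and RPS27A at 365 nm and after that of RPS28 at 254 nm. RPS19, the gene most often mutated in Diamond-Blackfan anaemia, had 38473 and 20509 in 4SU with 365 nm, against 2602 and 1227 in 4SU. It had 8504 and 16309 in 254 nm, against 1356 and 877 in untreated cells, and it was the highest member in library B of 254 nm.

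RPS16 had the highest normalised CPM of all members in 4SU with 365 nm, at 42479 and 21331, against 3394 and 1596 in 4SU. It had 9372 and 13477 in 254 nm, against 2038 and 908 in untreated cells. Its untreated libraries differed from each other by a wider ratio than those of RPS18. RPS18 had 18937 and 10261 in 4SU with 365 nm, against 1372 and 723 in 4SU. It had 3959 and 7113 in 254 nm, against 859 and 707 in untreated cells. The groups did not overlap in either pair. RPS29, a small zinc-binding protein, had 1359 and 624 in 4SU with 365 nm, against 160 and 60.7 in 4SU. It had 303 and 333 in 254 nm, against 63.5 and 19.96 in untreated cells.

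RPS27A and FAU encode fusion proteins, in which the ribosomal protein is cut from an N-terminal ubiquitin in RPS27A and from a ubiquitin-like protein in FAU. RPS27A had 5004 and 2929 in 4SU with 365 nm, against 305 and 158 in 4SU. It had 1263 and 2151 in 254 nm, against 197 and 226 in untreated cells. Its log2 fold change at 365 nm, 4.10 (SE 0.51), was the second highest, and that at 254 nm was 3.01 (SE 0.48). FAU had 7390 and 4532 in 4SU with 365 nm, against 638 and 252 in 4SU. It had 1982 and 2942 in 254 nm, against 338 and 198 in untreated cells. The groups did not overlap in either pair for these 2 genes.

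RPSA, which also carries the name laminin receptor, had 8020 and 2946 in 4SU with 365 nm, against 460 and 259 in 4SU. It had 954 and 1604 in 254 nm, against 332 and 265 in untreated cells. Its log2 fold changes of 3.93 (SE 0.53) and 2.10 (SE 0.49) differed more than those of any other member. RPS24, whose pre-mRNA is alternatively spliced, had 11089 and 5684 in 4SU with 365 nm, against 662 and 564 in 4SU. It had 1735 and 3460 in 254 nm, against 504 and 692 in untreated cells. Its log2 fold changes were 3.77 (SE 0.54) and 2.12 (SE 0.50).

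RPS4X had 28309 and 15373 in 4SU with 365 nm, against 2172 and 1639 in 4SU. It had 4667 and 7542 in 254 nm, against 1515 and 1678 in untreated cells. Its log2 fold change at 254 nm, 1.94 (SE 0.55), was the second lowest after RPS3A. RPS7 had 4447 and 2145 in 4SU with 365 nm, against 601 and 209 in 4SU. It had 937 and 1317 in 254 nm, against 308 and 242 in untreated cells. The groups did not overlap, and its log2 fold changes of 3.03 (SE 0.49) and 2.04 (SE 0.48) were the third lowest in each comparison. RPS6, the substrate of the S6 kinases, had log2 fold changes of 3.59 (SE 0.58) and 2.34 (SE 0.55).

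RPS27, a zinc-binding protein, had 4784 and 2439 in 4SU with 365 nm, against 338 and 171 in 4SU. It had 805 and 2854 in 254 nm, against 180 and 136 in untreated cells. Its 254 nm libraries were the farthest apart of any member. RPS15A had 8366 and 4002 in 4SU with 365 nm, against 1017 and 339 in 4SU. It had 2186 and 3989 in 254 nm, against 448 and 408 in untreated cells. RPS3A, at the platform beside the mRNA exit, had 67.4 and 25.2 in 4SU with 365 nm, against 11.4 and 4.71 in 4SU. It had 13.6 and 24.9 in 254 nm, against 7.57 and 8.52 in untreated cells. RPS3A had few tags, yet its groups did not overlap in either pair.

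The other 10 members (RPS3, RPS6, RPS9, RPS10, RPS12, RPS13, RPS14, RPS20, RPS21 and RPS25) were in no contrast among the 3 highest or lowest and are given by their range. Their log2 fold changes ran between 3.58 for RPS14 and 4.05 for RPS9 at 365 nm. At 254 nm they ran between 2.34 for RPS6 and 3.16 for RPS9. Of the 5 members without split tags, RPS13 had 3.63 (SE 0.52) and 2.48 (SE 0.50) and RPS25 had 3.73 (SE 0.50) and 3.10 (SE 0.49). RPS28, also without split tags, was above every member with split tags in both comparisons, and RPS15 was so at 254 nm.

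**Figure D4:**
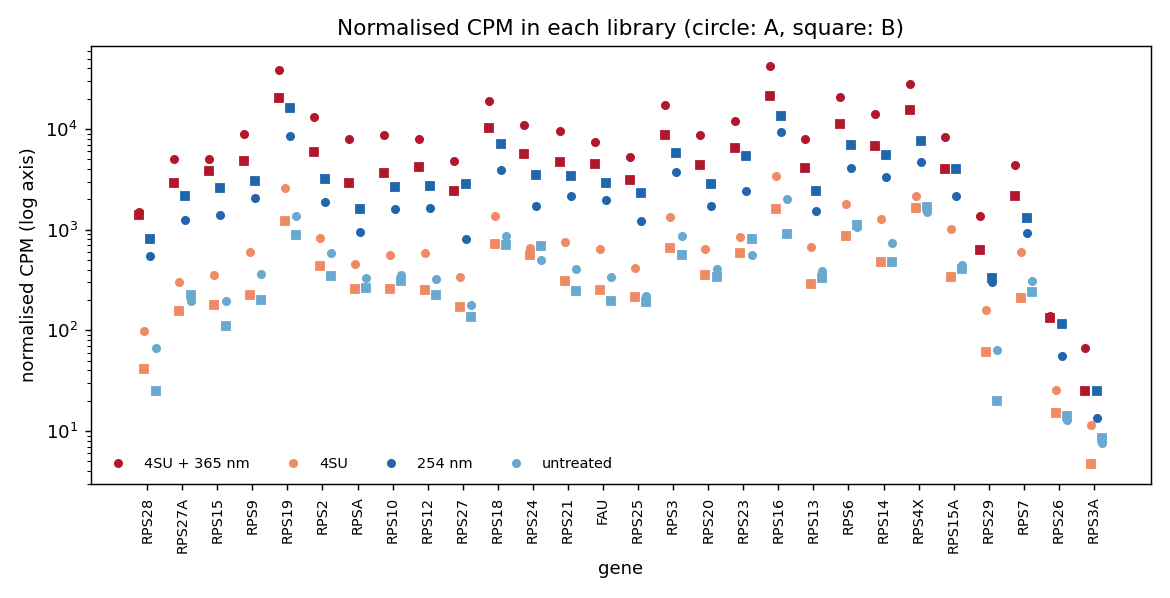
Normalised CPM (log axis) of each of the 28 genes in the 8 libraries of the 4 groups, with circles for library A and squares for library B, sorted by the 365 nm fold change. In each gene the 2 libraries of 4SU with 365 nm lie above the 2 of 4SU and the 2 of 254 nm above the 2 untreated ones, with RPS3A and RPS26 far below the rest.

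The libraries of a group were not close to each other for these genes. Library A exceeded library B for all 28 members in 4SU with 365 nm, by a median log2 difference of 0.96, and in 4SU, by 1.06. Library B exceeded A for all 28 members in 254 nm, with an A minus B median of -0.74. In untreated cells A was higher for 21 of 28, with a median of 0.33. The members thus moved together between libraries of 1 group, and their 28 calls are not 28 separate observations.

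The effect of 4SU without irradiation was tested between the groups that were not irradiated. In 4SU against untreated cells 1 of 28 members was called, beside 3.85% of all tested genes called higher and 3.69% called lower. The median log2 fold change was 0.54, against 0.02 over all tested genes, and 27 of 28 values were above 0. RPS29 was the gene called, at 1.39 on the log2 scale (SE 0.45, adjusted p = 0.0461 by edgeR's quasi-likelihood test). Its library values overlap, since 60.7 in 4SU library B is below 63.5 in untreated library A. The call was lost without library A of 4SU (0.51, adjusted p = 0.745 by edgeR), without library B of the untreated group (0.77, adjusted p = 0.456) and with DESeq2 (1.38, adjusted p = 0.392).

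The other members had adjusted p-values of 0.316 or more in that comparison by edgeR's test. RPS15 and RPS19 followed RPS29 with 0.80 (SE 0.46) and 0.78 (SE 0.57). RPS3A, RPS24 and RPS23 were lowest, with -0.04 (SE 0.46), 0.04 (SE 0.48) and 0.06 (SE 0.50). RPS26 was the member with both 4SU libraries above both untreated libraries, beside 24.7% of all tested genes, and it was chosen for mention after its values were seen. The members' median was -0.12 without library A of 4SU, 0.98 without library B of 4SU and 0.31 without library B of the untreated group. The 4SU libraries and the untreated libraries are also the ones the irradiated groups are set against, so these comparisons share samples.

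Between the irradiated groups, 20 of 28 members were called higher in 4SU with 365 nm than in 254 nm. Of all tested genes 15.2% were called higher and 12.5% lower. All 28 members had log2 fold changes above 0. The median log2 fold change was 1.42, against -0.10 over all tested genes, and both 365 nm libraries lay above both 254 nm libraries for 27 members, beside 31.1% of all genes. RPSA, RPS2 and RPS4X were highest, with 2.10 (SE 0.49), 1.91 (SE 0.51) and 1.84 (SE 0.54). RPS26, RPS27 and RPS15A were lowest, with 0.67 (SE 0.35), 0.98 (SE 0.49) and 1.00 (SE 0.50), and did not pass edgeR's test. RPS27 was the member whose groups overlapped, since its 254 nm library B had 2854 and its library B of 4SU with 365 nm had 2439.

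That count rested on the scaling. With library totals it was 1, beside 631 of 13731 tested genes called higher, so it was near the share over all genes. The member called was RPSA, with a log2 fold change of 1.02 (adjusted p = 0.0252 by edgeR). The members' median moved with single libraries. It was 0.90 without library A and 1.80 without library B of 4SU with 365 nm. It was 1.08 without library A and 1.79 without library B of 254 nm. Each of these fits leaves 1 library in a compared group, so no count is given for them. With library totals the median was 0.37 for the members and -1.08 for all tested genes. With the length correction 13 members were called, beside 15.1% of all genes. The 2 groups also differ in 4SU, so wavelength and 4SU cannot be told apart in this comparison.

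The difference between the irradiation effects, each taken over its own non-irradiated group, was tested directly. Neither wavelength was used both with and without 4SU, so wavelength and 4SU cannot be told apart in this difference either. None of the 28 members was called, beside 9.99% of all tested genes called higher and 7.09% called lower, and 4 had an unadjusted p below 0.05 in edgeR's test. All 28 differences were above 0, with a median of 0.92, against -0.15 over all tested genes. That median was 0.40 without library A of 4SU with 365 nm, 0.41 without library B of 4SU, 0.60 without library A of the untreated group and 1.57 without library A of 4SU. RPSA had 1.84 (SE 0.67, adjusted p = 0.0519 by edgeR), RPS24 had 1.65 (SE 0.68, adjusted p = 0.0871) and RPS4X had 1.58 (SE 0.75, adjusted p = 0.14). RPS26, RPS29 and RPS27 had 0.07 (SE 0.52), 0.25 (SE 0.62) and 0.30 (SE 0.68). DESeq2 called 4 members, RPSA, RPS2, RPS4X and RPS24, beside 11.5% of all genes called higher. With the length correction 4 were called, beside 11.6%. Both counts are near those shares. With the replicate letter as a block 1 member was called, beside 11.3% of all genes called higher. With library totals the members' median was -0.13, with 17 of 28 below 0, against -1.18 over all genes.

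Members with the pyrimidine start and members without it covered overlapping ranges of fold change. At 365 nm the 19 with the motif had a median of 3.74 and the 6 without it 3.34. At 254 nm the medians were 2.86 and 2.79. RPS28 and RPS15, without the motif, were the highest at 254 nm, and RPS3A, with it, was the lowest in both comparisons. No test was made between these classes, whose members share every library.

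Of 43 large-subunit genes tested, 43 were called higher at 365 nm, with a median of 3.71, beside 26.1% of all tested genes. At 254 nm 43 were called, with a median of 2.75, beside 25.2%. In 4SU 1 of them was called higher, beside 3.85%. In the difference between irradiation effects 1 was, beside 9.99%, namely RPL3, with 2.30 (SE 0.63, adjusted p = 0.00891 by edgeR). RPL3 is a core protein of the large subunit.

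Of 26 tested genes whose products assemble the small subunit, 5 were called higher and 11 lower at 365 nm, with a median of -0.73. Of all tested genes 26.1% were called higher and 33.8% lower. At 254 nm 7 were called higher and 4 lower, with a median of 0.16, beside 25.2% and 28%. The counts of genes called higher are near the shares over all genes. FBL, the methyltransferase of ribosomal RNA, rose by 3.30 (SE 0.51) at 365 nm and by 1.92 (SE 0.49) at 254 nm. UTP20, a large scaffold of early assembly, had -1.44 (SE 0.57) and -2.17 (SE 0.44).

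Other genes whose mRNAs are known to carry the TOP motif, chiefly translation factors, had 17 of 19 called higher at 365 nm, with a median of 2.83, beside 26.1% of all tested genes. At 254 nm 8 were called higher and 2 lower, with a median of 0.75, beside 25.2% and 28% of all genes. In the difference between irradiation effects 9 were called higher, beside 9.99%. EEF1G, a subunit of the elongation factor that delivers tRNA, had 3.58 (SE 0.46) at 365 nm and 1.65 (SE 0.43) at 254 nm. IPO5, a nuclear import receptor, had 2.81 (SE 0.39) and -1.23 (SE 0.37), and its difference of 4.04 (SE 0.54) was the widest of the list. FBL belongs to both lists.

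Of 9 tested kinase and paralogue genes, 2 were called higher and 3 lower at 365 nm, with a median of -0.36. Of all tested genes 26.1% were called higher and 33.8% lower. At 254 nm 2 were called higher and 4 lower, with a median of -0.51, beside 25.2% and 28%. These small counts are near the shares over all genes. RPS27L, the paralogue of RPS27, had 3.06 (SE 0.39) at 365 nm and 1.94 (SE 0.37) at 254 nm. RPS6KB2, an S6 kinase gene, had 3.59 (SE 0.39) and 1.65 (SE 0.37). RPS6KA3, another kinase gene, had -1.63 (SE 0.46) and -2.39 (SE 0.40).

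In the siRNA pair there is 1 library per siRNA, so there is no test, and the intervals cover counting error only. HuR is the RNA-binding protein encoded by ELAVL1, which had 638 tags (70.8 CPM) in the HuR siRNA library against 1905 (219 CPM) in the GFP siRNA library. The members held 2.57% of tags with HuR siRNA and 1.75% with GFP siRNA. Their median log2 ratio was 0.69, against 0.01 over 17798 genes. By a 1.5-fold limit 17 of 28 were higher with HuR siRNA, beside 17.8% of all genes, and 0 were lower, beside 19.7%.

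The members were not shifted evenly in that pair. RPS10 had the highest log2 ratio, 1.30 (95% interval 1.22 to 1.39), with 417 and 169 normalised CPM in HuR siRNA and GFP siRNA. RPS14 followed at 1.16 (1.12 to 1.21) and RPSA at 1.06 (0.99 to 1.13). RPS25 was lowest at 0.06 (-0.02 to 0.14) with 283 and 272, and RPS12 was next at 0.09 (0.01 to 0.17). RPS3A had 0.16 with a wide interval of -0.54 to 0.89, from 36.75 and 33.5 tags. The 43 large-subunit genes had a median of 0.66, and 25 of them were higher by over 1.5-fold. With library totals the members' median was 0.58 and 14 were higher by over 1.5-fold, beside 2443 of 17798 genes.

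**Figure D5:**
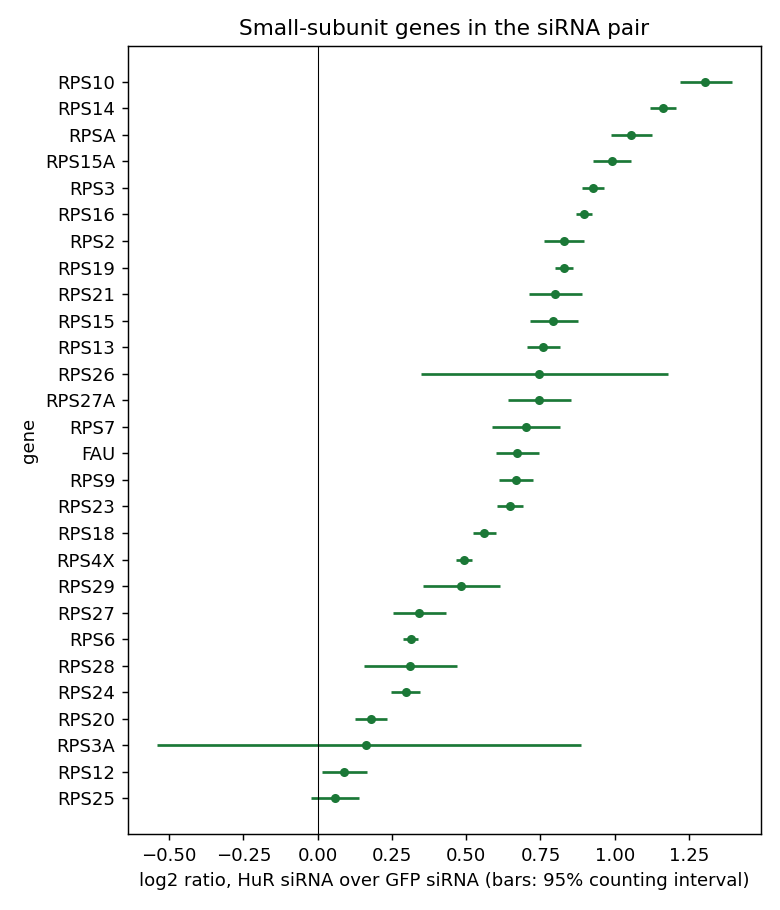
Log2 ratio of normalised CPM in the HuR siRNA library over the GFP siRNA library for each of the 28 small-subunit genes, with exact 95% counting intervals and 1 library per siRNA. The ratios run between 0.06 for RPS25 and 1.30 for RPS10, and the intervals of RPS25 and RPS3A include 0.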

How the data were processed

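Per the labels' protocols, HEK293 cells were treated and polyadenylated RNA was sequenced in 10 libraries. Each deposited table lists transcripts with an expected count of tags that the authors did not normalise and that need not be whole, with the transcript length, and with the authors' expression value, a signal in tags per 100 nucleotides of transcript and per 1000000 tags, per the file headers. Aligner, genome build and annotation: not given in the sources used here. No fit used the expression value.

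Transcripts were named from a RefSeq table (15886) and from GENCODE alone (134), and 24994 features remained after transcripts of a gene were summed. Expected counts were rounded to whole tags. One edgeR 4.0.16 model (R 4.3.3) covered the 8 libraries of the replicated groups (TMM factors, filterByExpr, a mean per group, 4 residual and 40 prior degrees of freedom, common biological coefficient of variation 0.244). The 5 contrasts had two-sided quasi-likelihood tests with Benjamini-Hochberg adjustment over all 13731 genes, and the SE is the fold change over the root of its F value. The siRNA pair (genes with at least 10 tags in all, prior count 2) has exact intervals. Only counting error enters intervals and the limit of 3 tags, since no molecular identifiers are described.

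Alternatives were DESeq2 1.42.0, library totals, upper-quartile and RLE factors, no filter and a filter of 5 CPM in 2 libraries, the replicate letter as a block, a length correction (lowess of span 0.3 per library, as an offset), only the compared groups, an adjusted p below 0.01, members without split tags, and each library left out. The main edgeR fit was run on simulated data, and no such run is reported for the alternatives. Library values are shown for members with the 3 highest or 3 lowest fold changes in a contrast or levels per length, and for RPS27A and FAU, and for a gene outside the members up to 2 highest and 2 lowest of a list. The members, the lists and these rules were chosen with earlier results of these data known. Shared letters do not pair libraries by any label.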

Additional observations from a re-analysis of the deposited data

How the results depend on the processing

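Without the 23 members that had split tags, 5 of 5 were called at 365 nm, 5 at 254 nm, 0 in 4SU and 4 between the irradiated groups. In the same order, 26.1%, 25.2%, 3.85% and 15.2% of all tested genes were called higher. The 365 nm median was 1.78 with library totals and 1.86 with the length correction, alone or with the replicate block. The 254 nm median was 1.92 with library totals, 1.15 with the length correction and 1.16 with the replicate block and the length correction. Per length, the ratio of shares was 2.06 at 365 nm and 2.21 at 254 nm. In 4SU the count was 0 with DESeq2, RLE factors, upper-quartile factors and the compared groups alone. Of all genes 1.87%, 3.70%, 4.08% and 2.98% were called higher there, in the same order. It was also 0 at an adjusted p below 0.01. With a library left out the members' median in 4SU ran between -0.12 and 0.98. Between the irradiated groups the count was 1 with library totals, 13 with the length correction, 5 at an adjusted p below 0.01 and 0 to 24 with a library left out, and the median was 0.37 with library totals. For the difference between irradiation effects the count was 4 with DESeq2, 1 with RLE factors and 2 without the filter. It was 1 with the replicate block, 4 with the length correction and 4 with both. In the same order, 11.5%, 12.2%, 5.87%, 11.3%, 11.6% and 12.9% of all genes were called higher. The members' median difference was -0.13 with library totals. The siRNA median was 0.58 with library totals and 0.76 without split members.

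Over all 28 members, 17 were below 0 for the difference of effects with library totals, and 20 were below 0 in 4SU without library A of 4SU. Of the members named for a contrast by the rule on the highest and lowest, these changed sign. At 254 nm RPS3A had -0.30 with the length correction and -0.27 with block and length correction. In 4SU RPS3A had 0.0202 with upper-quartile factors and -0.78 to 0.49 with a library left out. RPS24 had -0.0085 without the filter, -0.008 with block and length correction, -0.0203 with the length correction and -0.19 to 0.27 with a library left out. RPS27A had -0.16, -0.17 with the same corrections and -0.44 to 0.52 with a library left out. RPS23 had -0.25 to 0.33 and FAU -0.10 to 1.24 with a library left out. Between the irradiated groups, library totals gave RPS26 -0.29, RPS27 -0.0117 and RPS15A -0.0449. For the difference of effects, RPS26 had -0.92 with library totals, -0.0793 with block and length correction, -0.0879 with the length correction and -0.35 to 0.69 with a library left out. RPS29 had -0.83, -0.13 with block and length correction and -0.82 to 1.11. RPS27 had -0.71, -0.16, -0.21 and -0.35 to 1.48. FAU had -0.49 with library totals. The cause was not tested.

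Across all other settings tried, the 365 nm count stayed at 26 or more and the 254 nm count at 22 or more. The letters A and B share no stated culture or day. Deviations of same-lettered libraries over all genes correlated by 0.15, 0.13, 0.35 and 0.0076 in the 4 contrasts of group pairs. Over the 28 members they correlated by 0.13, 0.51, 0.58 and 0.10, in the same order. The replicate block left the counts at 28, 28, 1 and 20, with 1 for the difference of effects. In the same order, 27.0%, 26.8%, 6.28%, 16.3% and 11.3% of all genes were called higher. RPS3A and RPS26 had the fewest tags of the members in every library, so counting error limits them most. RPS3A had 33.5 and 36.75 tags in the deeper GFP siRNA and HuR siRNA libraries, against 38 and 32 in the untreated ones. The cause of these low counts was not tested.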
